A study of Mus musculus with 10 samples.

Results

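The protocadherin genes were taken as every gene of the authors' normalized count table whose symbol starts with Pcdh, which gave 69 of 21862 genes. They were split by symbol into the Pcdha cluster (14 genes), the Pcdhb cluster (22), the Pcdhg cluster (21) and 12 genes outside the clusters. Their RNA was read from polyA libraries of wild-type cortical neurons, dissected from C57BL/6J mouse embryos at E16.5, kept in culture and treated with 0.5 µM AraC, which kills dividing cells. The treatment protocol in the labels is worded alike for every sample, naming the H2BE virus and BDNF, so the groups were taken from titles, characteristics and the series' design text. By that text all cultures carried a lentivirus, either a control virus or one that drives H2BE, a variant of histone H2B, from a constitutive promoter. The BDNF group had the control virus and BDNF, a neurotrophin that signals through the TrkB receptor, and the Control group had the control virus alone. The H2BE+BDNF group had the H2BE virus and BDNF, and the H2BE group had the H2BE virus alone. RNA was taken 24 h after BDNF was added. The dose of BDNF and the virus titre are unstated. Nothing in the labels tells whether the replicates came from separate cultures. The p-values therefore reflect the spread between libraries alone, and that spread may be technical.

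Protocadherins are cadherin-related adhesion molecules of the cell surface. In the clustered genes each variable exon has its own promoter and encodes a whole extracellular domain, and in Pcdha and Pcdhg it is spliced to constant exons that all genes of the cluster share, whereas Pcdhb genes are single exons. A neuron picks a few of the alternate isoforms by promoter choice, with DNA methylation, CTCF and cohesin involved, and their homophilic binding lets its branches recognise each other. The C-type genes at the ends of the Pcdha and Pcdhg clusters (Pcdhac1, Pcdhac2, Pcdhgc3, Pcdhgc4 and Pcdhgc5) are not chosen in this way and are used more uniformly by a given cell type. The genes outside the clusters include the delta protocadherins, which have cytoplasmic tails of their own and act in axon growth, sorting and synapse number.

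Control replicate 3 and BDNF replicate 3 were not separate samples: at 0 of 48526 genes did either hold more counts than replicate 1 of its group, and all values below use the other 8 libraries, 2 in each group. Their totals ran from 5058074 to 14142545 counts. H2bc21, which encodes H2BE, had 32.1 to 35.2 CPM (counts relative to the TMM-scaled library total, the unit of all levels here) in H2BE+BDNF, 3.69 to 4.07 CPM in BDNF, 35.7 to 42.9 CPM in H2BE and 5.19 to 5.24 CPM in Control. Summed over 8 listed markers each, excitatory neuron genes ran from 990.4 to 1289.7 CPM and interneuron genes from 1809 to 2253 CPM over the libraries, so defining markers of neurons were present in all of them.

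In GENCODE M21 (GRCm38), 59 of the 69 genes lie on chromosome 18. The Pcdha genes span chr18:36930184-37187661, the Pcdhb genes chr18:37264938-37524479 and the Pcdhg genes chr18:37661793-37841873, all on the plus strand, and Pcdh1 and Pcdh12 lie beyond them. Together the 69 genes held between 0.220% and 0.263% of the counts in the 8 libraries. Of the 69, 64 passed the filter on low counts. Pcdha4, Pcdha8, Pcdhb1, Pcdhga10 and Pcdh12 did not, and an additional gene, Pcdhgb8, had 0 to 2 counts per library and is not in the normalized table. Pcdh12, an endothelial protocadherin, had at most 1.06 CPM. How the authors' counting assigned reads of the shared constant exons is unstated. Pcdhga10, which has 0 exonic bases that belong to it alone in that annotation, had 1 count in the 2 BDNF libraries together and 3 in the 2 Control libraries, so reads of the constant exons were not credited to every gene that uses them. The Pcdhb genes are close paralogs, and reads that match several of them may have been lost or divided. In M21 the exons of all 21 Pcdhg genes overlap predicted genes such as Gm37013. Apart from those, exons of Pcdha4, Pcdha6, Pcdha7, Pcdha11, Pcdha12, Pcdhb12, Pcdhga1, Pcdhga7, Pcdhga8, Pcdhga10, Pcdhga11, Pcdhga12, Pcdhgb7, Pcdhgc3, Pcdh7, Pcdh8, Pcdh10 and Pcdh19 overlap another gene that is no protocadherin, and Pcdhb21 and Pcdhb22 overlap each other. No source used here gives the strand setting of the counting, so the values of these genes are less certain. The exonic bases in no other gene were 7% for Pcdha4, 16.8% for Pcdha11, 26.4% for Pcdhga11, 33.1% for Pcdhgc3 and 36.4% for Pcdha12, against 78.9% for Pcdh7.

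Levels were compared between genes as CPM per kilobase of exon not shared with another gene. On that scale the highest in Control were Pcdh9 (33), Pcdh8 (32.3) and Pcdhac2 (23.4), followed by Pcdh1 (21.4) and Pcdhgc4 (19.6). The first non-C gene of a cluster in that order was Pcdhga11, at 13.7 CPM per kilobase, a value that rests on the 26.4% of its exonic bases that no other gene shares. Pcdha4, which did not pass the filter, had 2.47 CPM per kilobase in Control on the 7% of its exonic bases that are unshared. Pcdha1, which passed, had 2.48. In BDNF libraries Pcdhac2 led the 68 genes with a length, at 42.1 CPM per kilobase, ahead of Pcdh9 at 36.2. Within the clusters no single alternate gene dominated. The effective number of genes, the exponential of the entropy of their counts, was 18 in BDNF and 17.9 in Control for the 22 Pcdhb genes, as means of 2 libraries. For the 12 genes Pcdha1 to Pcdha12 it was 8.73 ± 0.231 in BDNF and 9.29 ± 0.0434 in Control, and 8.98 ± 0.0511 in H2BE+BDNF and 9.12 ± 0.378 in H2BE (SD, n = 2). For the 18 Pcdhg genes of the A and B types it lay between 15.6 and 16.2 in all 8 libraries.

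BDNF changed all 5 C-type genes under the control virus, while 3 of the 48 other clustered genes tested passed. Pcdhac1, Pcdhac2, Pcdhgc3 and Pcdhgc5 rose and Pcdhgc4 fell. Over all 64 members tested, 14 were called against Control (9 higher, 5 lower), or 21.9%, at an adjusted p below 0.05, against a background of 31.4% of the 13452 genes tested. The median log2 fold change was -0.02 over the members and -0.01 over all genes. The share of members called was thus not above that of genes in general.

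Pcdhac2, needed in mouse brain for the spacing of serotonergic axons, had 126 and 129 CPM in BDNF and 71.8 and 70.1 CPM in Control. Both BDNF libraries lay above both Control libraries. In this comparison the groups did not overlap, in either direction, at 64.2% of all genes tested and 53.1% of members. The level was 1.79-fold that of Control (log2 fold change 0.84, SE 0.07, adjusted p = 1.51e-07). Pcdhgc5, whose protein binds a GABA receptor subunit in rat neurons, had 29.8 and 32.6 CPM in BDNF and 11.9 and 13.8 CPM in Control. Its BDNF libraries stood above its Control libraries, 2.48 times as high in the fit (log2 fold change 1.31, SE 0.12, adjusted p = 6.55e-07). Pcdhac1, the other Pcdha C type, was far less abundant, with 7.21 and 8.46 CPM in BDNF and 3.65 and 1.75 CPM in Control, again without overlap (log2 fold change 1.38, SE 0.29, adjusted p = 0.00198). Pcdhgc3, which can bind Axin1 and act on Wnt signalling, had 27 and 30.5 CPM in BDNF and 23.4 and 18.5 CPM in Control. This was the smallest rise of the group (log2 fold change 0.42, SE 0.12, adjusted p = 0.0153), and the call was lost with DESeq2 (adjusted p = 0.0767), without BDNF replicate 2 (0.0822) and without Control replicate 2 (0.125). Pcdhgc4, the isoform that mouse cortical interneurons need for survival, went the other way, with 52.4 and 46.3 CPM in BDNF and 67.9 and 68.2 CPM in Control (log2 fold change -0.46, SE 0.09, adjusted p = 0.00113). Both BDNF libraries lay below both Control libraries.

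**Figure D1:**
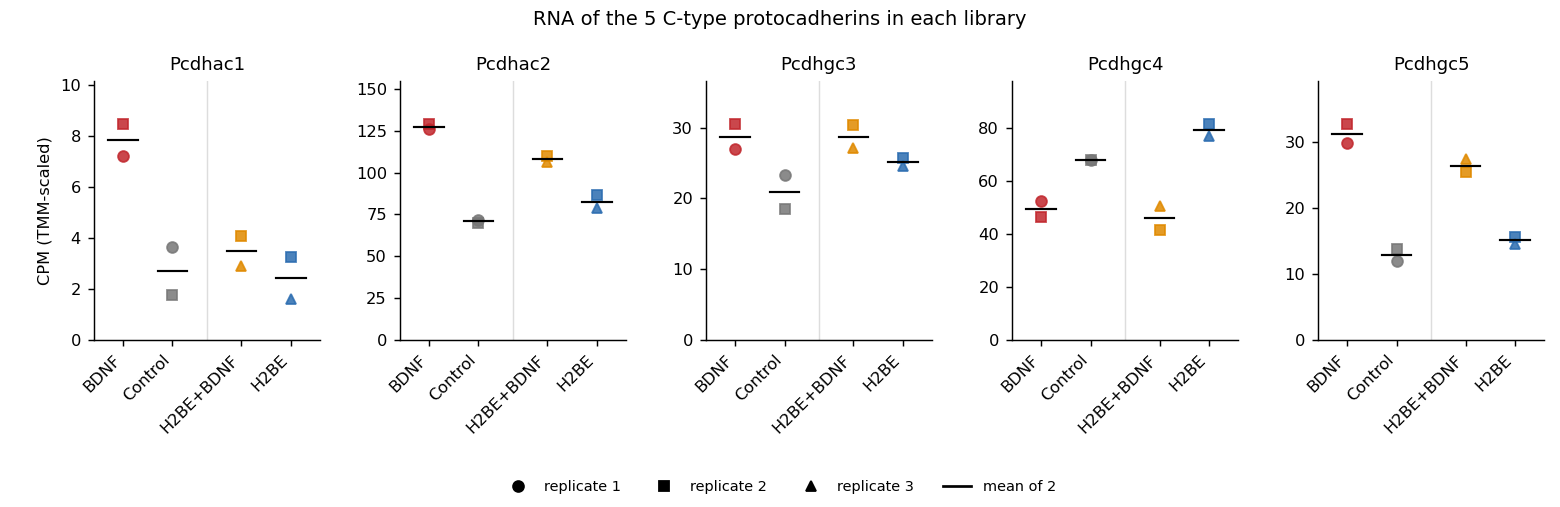
CPM of the 5 C-type protocadherins in each of the 8 libraries, with the groups on the x axis, a symbol for each replicate and a bar at the mean of 2 libraries. Pcdhac2 and Pcdhgc5 were higher and Pcdhgc4 was lower with BDNF under both viruses, and the Pcdhac1 libraries of H2BE+BDNF (2.88 and 4.07 CPM) overlapped those of H2BE.

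Under the H2BE virus the same question was asked of separate libraries. Here 17 of 64 members were called against H2BE (5 higher, 12 lower), or 26.6%, against 25.8% of all genes. Pcdhac2 and Pcdhgc5 again rose and Pcdhgc4 fell. Pcdhac2 had 110.1 and 106 CPM in H2BE+BDNF and 86.4 and 78.6 CPM in H2BE (log2 fold change 0.39, SE 0.07, adjusted p = 9.01e-04), and Pcdhgc5 had 25.4 and 27.4 CPM in H2BE+BDNF and 15.6 and 14.5 CPM in H2BE (log2 fold change 0.80, SE 0.14, adjusted p = 3.76e-04). For Pcdhgc4 the values were 41.6 and 50.4 CPM in H2BE+BDNF and 81.6 and 77 CPM in H2BE (log2 fold change -0.79, SE 0.10, adjusted p = 2.40e-05). In these 3 genes both libraries with BDNF lay on 1 side of both libraries without it, as they did at 63.4% of all genes tested and 56.25% of members. Pcdhac1 and Pcdhgc3 did not pass, at 4.07 and 2.88 CPM in H2BE+BDNF and 3.26 and 1.59 CPM in H2BE for Pcdhac1 (log2 fold change 0.47, adjusted p = 0.432) and 30.4 and 27.1 CPM in H2BE+BDNF and 25.8 and 24.6 CPM in H2BE for Pcdhgc3 (log2 fold change 0.19, adjusted p = 0.324). Pcdhac1 overlapped between the groups and rested on 54 counts in H2BE+BDNF and 31 in H2BE.

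With BDNF the make-up of a cluster's RNA shifted along with these levels. The 2 C types took 53.1% and 55.4% of all Pcdha counts in BDNF and 39.9% and 36.6% in Control. Under the H2BE virus they took 54.1% and 51.3% in H2BE+BDNF and 41.8% and 40.6% in H2BE. In the Pcdhg cluster the 3 C types together held a nearly constant share, 36.9% and 36.8% in BDNF and 35.6% and 33.7% in Control, and 34.9% and 36.9% in H2BE+BDNF and 35.4% and 35.2% in H2BE. The change was within them. Pcdhgc4 made up 48% and 42.3% of Pcdhg C-type counts in BDNF and 65.8% and 67.8% in Control, and 42.8% and 48.1% in H2BE+BDNF and 66.4% and 66.3% in H2BE. Pcdhgc5 made up 27.3% and 29.8% in BDNF and 11.6% and 13.7% in Control, and 26% and 26.1% in H2BE+BDNF and 12.7% and 12.5% in H2BE. For Pcdhgc4 the 95% Wilson interval was 45.3% to 50.7% in BDNF replicate 1 and 63.3% to 68.2% in Control replicate 1, and it covers counting error only. These shares follow from the counts already given and were not tested apart from them.

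**Figure D2:**
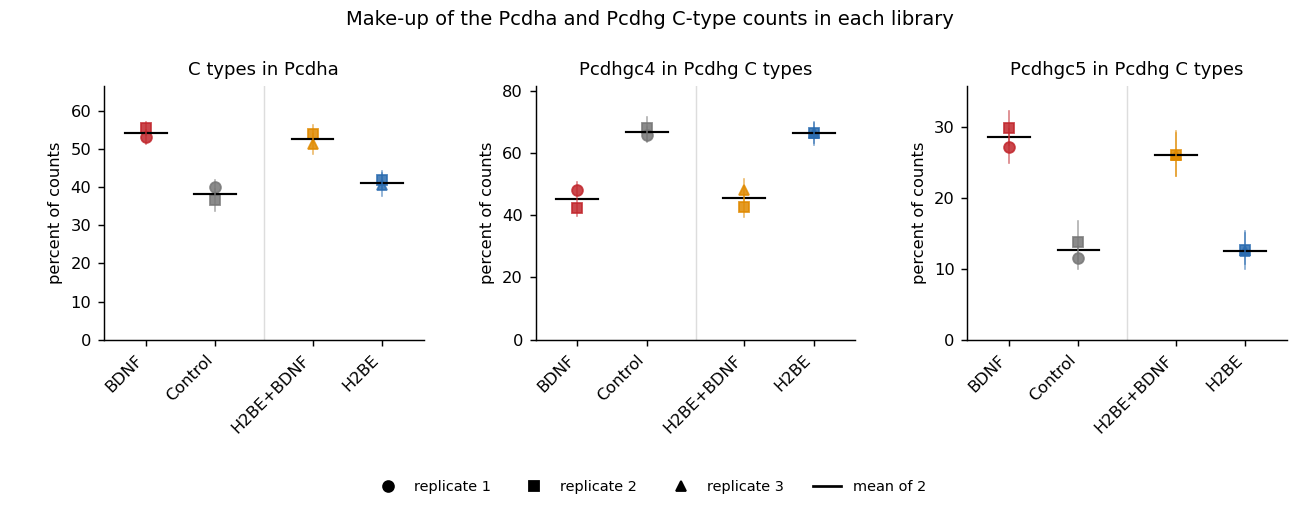
Percent of Pcdha counts from the 2 C types, and of Pcdhg C-type counts from Pcdhgc4 and Pcdhgc5, in each library. Thin lines are 95% Wilson intervals and bars are means of 2 libraries. In all 4 libraries with BDNF the C types held over 50% of Pcdha counts and Pcdhgc4 held under 50% of Pcdhg C-type counts.

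Among the alternate genes, those other than C types, called changes were few and were all decreases. Against Control they were Pcdha1, Pcdha11 and Pcdhga2. Pcdhga2 had 11.8 and 10.7 CPM in BDNF and 15 and 15.4 CPM in Control (log2 fold change -0.43, SE 0.14, adjusted p = 0.0278). Pcdha1 had 3.09 and 4.31 CPM in BDNF and 5.33 and 6.99 CPM in Control (log2 fold change -0.68, SE 0.25, adjusted p = 0.0484), just under the threshold. For Pcdha11 the levels were 0.172 and 0.570 CPM in BDNF and 1.33 and 1.22 CPM in Control (log2 fold change -1.75, SE 0.60, adjusted p = 0.0359), which rest on 9 counts in BDNF and 26 in Control. In Pcdhga2, Pcdha1 and Pcdha11 both BDNF libraries lay below both Control libraries, a separation found at 64.2% of all genes. Each call depended on the processing: it was lost under 12 of 16 other settings for Pcdha1, 7 of 16 for Pcdhga2 and 2 of the 10 that gave Pcdha11 an adjusted p. At Pcdha1 the change under the H2BE virus was as large but not called (log2 fold change -0.77, adjusted p = 0.0636).

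Under the H2BE virus 8 of the 48 alternate genes tested fell, or 16.7%, near the 12.3% of all genes called lower in this comparison, and no other alternate gene was called. In the Pcdha cluster these were Pcdha2, with 9.21 and 9.66 CPM in H2BE+BDNF against 14.7 and 13.1 CPM in H2BE (log2 fold change -0.57, adjusted p = 0.0234), and Pcdha3, with 13.9 and 17.2 CPM in H2BE+BDNF against 25.1 and 18.9 CPM in H2BE (log2 fold change -0.53, adjusted p = 0.0222). Both are at the start of the cluster, next to Pcdha1. In the Pcdhb cluster Pcdhb5 fell to 7.18 and 6.20 CPM in H2BE+BDNF against 11.3 and 13.5 CPM in H2BE (log2 fold change -0.87, adjusted p = 0.00554). Pcdhb15 and Pcdhb18 were called with less margin, at adjusted p = 0.0454 and 0.0424 (log2 fold changes -0.90 and -0.54). In the Pcdhg cluster Pcdhga6 had 9.81 and 11.7 CPM in H2BE+BDNF against 16.3 and 14.9 CPM in H2BE (log2 fold change -0.55, adjusted p = 0.0230). Pcdhga11 had 17.6 and 16.1 CPM in H2BE+BDNF against 24.4 and 22.6 CPM in H2BE (log2 fold change -0.48, adjusted p = 0.0143), and Pcdhga12 had 14.2 and 16 CPM in H2BE+BDNF against 22.5 and 20.2 CPM in H2BE (log2 fold change -0.51, adjusted p = 0.0130). The 8 genes were named for being lower in H2BE+BDNF than in H2BE, so high H2BE values are part of that choice. In each of the 8 genes the 2 H2BE libraries were the highest of all 8 libraries. The share of all genes with this order was not counted. Under the control virus the log2 fold changes with BDNF ran from -0.24 at Pcdha2 to 0.10 at Pcdhb15, and none passed. Each of the 8 calls was lost without at least 1 library, and 7 of the 8 with DESeq2, the exception being Pcdhb5, lost without H2BE replicate 3 (adjusted p = 0.0528).

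As sums, Pcdha1 to Pcdha12 came to 114 ± 4.76 CPM in BDNF and 119 ± 7.79 CPM in Control, and to 100.3 ± 4.65 CPM in H2BE+BDNF and 121 ± 5.05 CPM in H2BE (SD, n = 2). The 22 Pcdhb genes summed to 210.2 ± 1.11 CPM in BDNF and 232 ± 13.4 CPM in Control, and to 201 ± 2.42 CPM in H2BE+BDNF and 238 ± 5.83 CPM in H2BE. The 18 Pcdhg genes of the A and B types summed to 187 ± 0.823 CPM in BDNF and 192 ± 7.60 CPM in Control, and to 181 ± 1.38 CPM in H2BE+BDNF and 219 ± 7.31 CPM in H2BE. The alternate genes of each cluster thus stood lower with BDNF under the H2BE virus in sum, by 0.24 to 0.28 on the log2 scale, where the libraries of the 2 groups did not overlap. Under the control virus they were lower by 0.04 to 0.14, but the libraries overlapped for Pcdha1 to Pcdha12 (110.7 to 117 CPM in BDNF, 113 to 124 CPM in Control) and for the Pcdhg A and B types (187 to 188 CPM in BDNF, 187 to 198 CPM in Control), and for the Pcdhg A and B types the log2 ratio turned to 0.028 with the subset libraries in place of replicates 1. In single genes the decreases under the H2BE virus were spread over the 3 clusters, with negative log2 fold changes at 9 of 10 genes of Pcdha1 to Pcdha12, 18 of 21 of Pcdhb and 13 of 17 of the Pcdhg A and B types. In all, 40 of the 48 had a negative log2 fold change under the H2BE virus (median -0.24) and 28 of 48 under the control virus (median -0.04). Over all genes 6728 of 13452 were negative under the H2BE virus and 6896 under the control virus. The genes were read from the same libraries, so these signs are not independent of each other. No test was made on these sums, and single genes were without overlap in H2BE+BDNF against H2BE at 63.4% of all genes.

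The most abundant genes of each cluster included several that did not pass in any comparison. In the Pcdhb cluster, where 0 of 21 genes tested were called against Control (edgeR, with 3 at an unadjusted p below 0.05, and 0 by DESeq2, which gave 21 an adjusted p), Pcdhb22 ranged over the 8 libraries from 18.6 to 26 CPM, Pcdhb9 from 17.3 to 25.6 CPM, Pcdhb17 from 15.8 to 24.8 CPM, Pcdhb20 from 15.5 to 23.6 CPM and Pcdhb19 from 14 to 19.4 CPM. Over all genes 5522 of 13452 were at an unadjusted p below 0.05 in BDNF against Control, and 31.4% were called. Pcdha12 ranged from 15.7 to 22.7 CPM, Pcdha5 from 13.8 to 18.8 CPM and Pcdha9 from 12 to 16.1 CPM. Pcdhga3 ranged from 17.4 to 26 CPM. Among these 9 genes the highest library was at most 1.57 times the lowest.

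**Figure D3:**
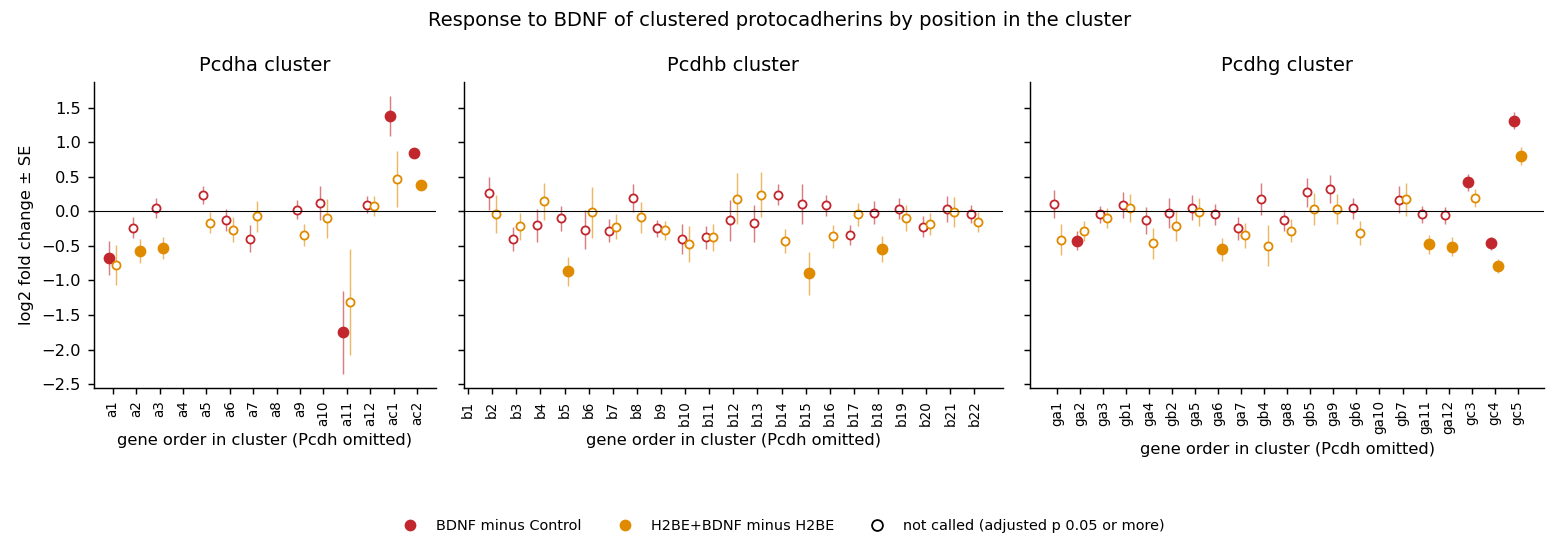
Log2 fold change with BDNF, with its SE, of the clustered genes that passed the filter, in their order along each cluster, under the control virus (BDNF minus Control, red) and the H2BE virus (H2BE+BDNF minus H2BE, orange). Filled points passed an adjusted p of 0.05. The filled points above 0 all belong to C types, at the right ends of Pcdha and Pcdhg, and Pcdhb has filled points only under the H2BE virus.

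Outside the clusters 6 of 11 genes tested were called with BDNF under each virus, against 31.4% of all genes under the control virus and 25.8% under the H2BE virus. The delta-1 genes (Pcdh1, Pcdh7, Pcdh9, Pcdh11x) have a tail motif that binds protein phosphatase 1, and 3 of the 4 rose under both viruses (16.8% of all genes were called higher under the control virus and 13.4% under the H2BE virus). The share of all genes called higher under both was not counted. The delta-2 genes (Pcdh8, Pcdh10, Pcdh17, Pcdh18, Pcdh19), several of which recruit the WAVE complex, an activator of actin branching, moved down or did not pass: 1 of 5 fell under the control virus and 3 of 5 under the H2BE virus (14.6% and 12.3% of all genes were called lower). Pcdh15 and Pcdh20 rose under the control virus and did not pass under the H2BE virus, and the difference between the 2 responses did not pass for either (adjusted p = 0.161 and 0.623).

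Pcdh11x (chrX:120290259-120910619), an X-linked delta-1 gene, showed the smallest adjusted p of any member. It had 298 and 328 CPM in BDNF and 152 and 156 CPM in Control, a 2.04-fold difference (log2 fold change 1.03, SE 0.06, adjusted p = 4.53e-09). Under the H2BE virus it had 288 and 289.7 CPM in H2BE+BDNF and 162 and 171 CPM in H2BE (log2 fold change 0.80, SE 0.06, adjusted p = 1.88e-07). All 4 libraries with BDNF lay above all 4 without it. Pcdh7 (chr5:57717967-58133230), also known as BH-protocadherin and expressed in brain and heart, had 212 and 231 CPM in BDNF and 150.4 and 159 CPM in Control (log2 fold change 0.52, SE 0.08, adjusted p = 9.49e-05), and 245 and 222 CPM in H2BE+BDNF and 155 and 187 CPM in H2BE (log2 fold change 0.46, SE 0.08, adjusted p = 5.55e-04). Pcdh1 (chr18:38185914-38212053), known in frogs as axial protocadherin, had 293 and 267 CPM in BDNF and 184 and 192 CPM in Control (log2 fold change 0.57, SE 0.06, adjusted p = 1.93e-06), and 262 and 252 CPM in H2BE+BDNF and 216 and 213 CPM in H2BE (log2 fold change 0.26, SE 0.06, adjusted p = 0.00489). In both genes the 4 libraries with BDNF were again above the 4 without. The 2 groups did not overlap at 64.2% of all genes under the control virus and 63.4% under the H2BE virus. The share of genes with all 4 libraries on 1 side was not counted. The Pcdh1 call under the H2BE virus was lost without H2BE+BDNF replicate 2. Pcdh9 (chr14:93013410-93890679), the remaining delta-1 gene, overlapped between groups, with 204 and 287 CPM in BDNF and 215 and 232 CPM in Control (log2 fold change 0.14, adjusted p = 0.382) and 211 and 198 CPM in H2BE+BDNF and 207 and 252 CPM in H2BE (log2 fold change -0.16, adjusted p = 0.377). Under the control virus the BDNF libraries were both the lowest and the highest of the 4.

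Pcdh18, a delta-2 gene whose protein binds the reelin adaptor Dab1, was the delta-2 gene that fell under both viruses. It lies at chr3:49743296-49757325, and had 18.9 and 15.1 CPM in BDNF and 22.2 and 22.5 CPM in Control (log2 fold change -0.40, SE 0.13, adjusted p = 0.0244) and 17.7 and 19.3 CPM in H2BE+BDNF and 26.1 and 27 CPM in H2BE (log2 fold change -0.52, SE 0.14, adjusted p = 0.0108). The groups were separate under both viruses, as at 64.2% of all genes under the control virus and 63.4% under the H2BE virus. The call was lost with DESeq2 under both viruses (adjusted p = 0.181 and 0.0654). Pcdh19, mutated in a human epilepsy of girls, fell under the H2BE virus to 66.3 and 68.2 CPM in H2BE+BDNF against 91.5 and 82.4 CPM in H2BE (log2 fold change -0.38, adjusted p = 0.00292), with 69.3 and 75.8 CPM in BDNF and 79 and 81.1 CPM in Control (log2 fold change -0.14, adjusted p = 0.182). Pcdh10, which takes part in activity-dependent synapse elimination, had 272 and 266 CPM in H2BE+BDNF and 307 and 328 CPM in H2BE (log2 fold change -0.24, adjusted p = 0.00645) and 278 and 259 CPM in BDNF and 286 and 297 CPM in Control (log2 fold change -0.11, adjusted p = 0.135). Pcdh17 and Pcdh8 did not pass in either comparison. Pcdh17 ranged from 199 to 224 CPM over all 8 libraries (log2 fold changes 0.12 against Control and -0.01 against H2BE). Pcdh8, also called Arcadlin and known as an activity-induced gene in rat hippocampus, ranged from 111 to 140.2 CPM (log2 fold changes -0.02 against Control and -0.11 against H2BE), and its groups overlapped under both viruses.

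Pcdh15 (chr10:73099342-74649737), best known from the tip links of inner-ear hair cells, had 29 and 39.1 CPM in BDNF and 19.7 and 15 CPM in Control (log2 fold change 0.92, SE 0.17, adjusted p = 5.14e-04). Under the H2BE virus its groups overlapped, with 35.5 and 25.9 CPM in H2BE+BDNF and 25.5 and 28.6 CPM in H2BE (log2 fold change 0.21, adjusted p = 0.438). Pcdh20 had 53.4 and 66.6 CPM in BDNF and 45.2 and 50.9 CPM in Control (log2 fold change 0.34, SE 0.11, adjusted p = 0.0309), and 57 and 52.8 CPM in H2BE+BDNF and 44.8 and 55.4 CPM in H2BE (log2 fold change 0.15, adjusted p = 0.420). That call was lost with DESeq2 (adjusted p = 0.0939), without BDNF replicate 2 (0.229) and without Control replicate 1 (0.329).

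**Figure D4:**
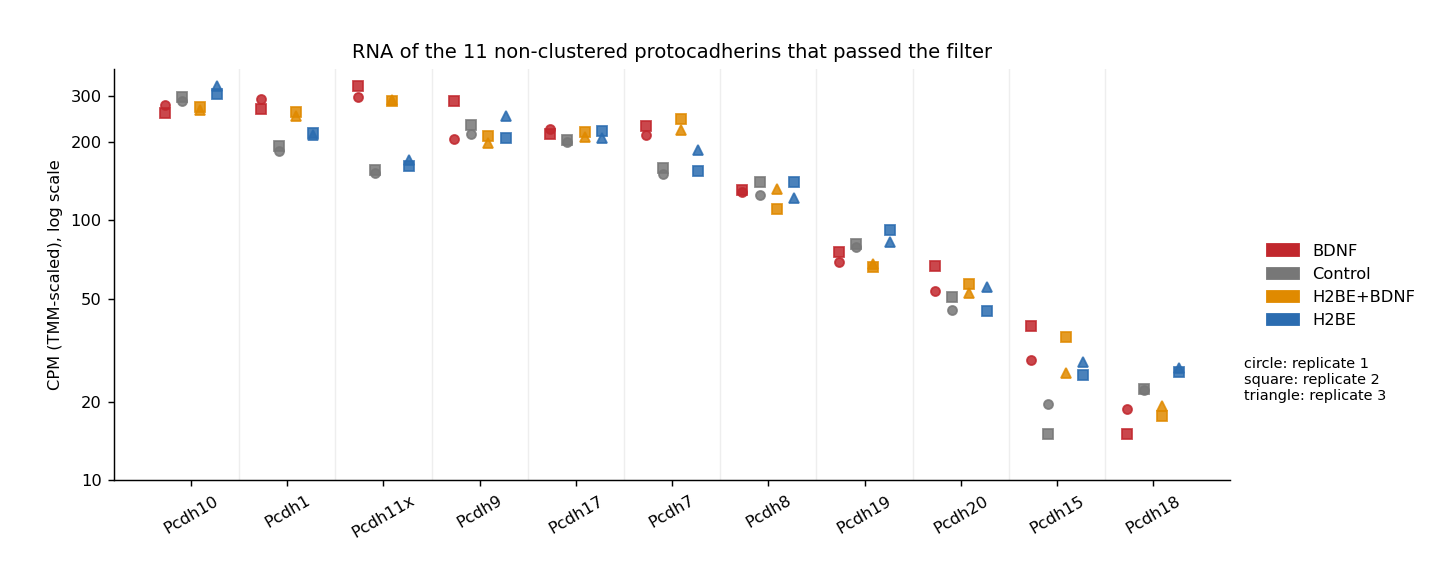
CPM, on a log axis, of the 11 genes outside the clusters that passed the filter, in each of the 8 libraries, from the most to the least abundant. Within each gene the groups run BDNF, Control, H2BE+BDNF, H2BE, and symbols stand for replicates. Pcdh1, Pcdh11x and Pcdh7 step down from each BDNF group to its partner without BDNF, and Pcdh18 steps up.

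Upstream sequence is shown for 3 of these genes: Pcdh7, which rose with BDNF under both viruses, Pcdh15, which was called under the control virus alone, and Pcdh18, which fell under both. RefSeq (GRCm38.p6) gives promoter windows for 9 of the 69 genes, all outside the clusters (Pcdh7, Pcdh8, Pcdh9, Pcdh10, Pcdh15, Pcdh17, Pcdh18, Pcdh19 and Pcdh20). Each line holds the part of the 250 bases before the RefSeq start that also lies outside the first exon of the gene in M21, 5′ to 3′ on the strand of the gene (136 bases for Pcdh7, 250 for Pcdh15 and 241 for Pcdh18). Capitals mark a motif match. The RefSeq start of Pcdh15 lies inside the gene as M21 gives it.
Pcdh7 (chr5:57717831-57717966, plus strand): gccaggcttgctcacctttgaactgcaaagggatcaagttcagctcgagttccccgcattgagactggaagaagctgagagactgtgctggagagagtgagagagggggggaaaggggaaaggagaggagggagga
Pcdh15 (chr10:73821617-73821866, plus strand): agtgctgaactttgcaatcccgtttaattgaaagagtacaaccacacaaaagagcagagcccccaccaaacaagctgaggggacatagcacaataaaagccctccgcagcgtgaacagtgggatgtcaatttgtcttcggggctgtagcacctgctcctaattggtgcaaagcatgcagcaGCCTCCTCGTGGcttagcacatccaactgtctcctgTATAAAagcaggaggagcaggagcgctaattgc
Pcdh18 (chr3:49757326-49757566, minus strand): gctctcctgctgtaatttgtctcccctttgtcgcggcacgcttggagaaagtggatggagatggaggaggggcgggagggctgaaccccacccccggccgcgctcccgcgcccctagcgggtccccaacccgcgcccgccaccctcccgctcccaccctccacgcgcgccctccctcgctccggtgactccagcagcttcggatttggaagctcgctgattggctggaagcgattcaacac
The search covered both strands of the 300 bases from 250 before to 50 after the start. The motifs were the cyclic AMP response element half-site TGACG, the AP-1 site TGANTCA, the EGR1 site GCGTGGGCG, the CTCF core, searched with gaps at its variable positions, and the TATA box TATAAA. In Pcdh15 the capitals are a CTCF core on the opposite strand that begins 69 bases before the start, a motif held by 2.41% of 27025 promoters, and a TATA box 33 bases before it, held by 14.2%. In Pcdh7 and Pcdh18 these letters are not in the window. Of the 9 windows TGACG was in 2 (Pcdh9 and Pcdh10), against 21% of all promoters, TATAAA in 2 (Pcdh8 and Pcdh15), and TGANTCA and GCGTGGGCG in 0, against 7.93% and 0.625%. The Pcdh18 window held 23 CG dinucleotides at 63% G and C, the Pcdh7 window 11 at 59.3% and the Pcdh15 window 8 at 50.7%, against medians of 7 and 52.7% over all promoters.

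The BDNF responses under the 2 viruses share no library, and they could be set side by side. Of 14 members called under the control virus and 17 under the H2BE virus, 7 were called under both, which is 7 of 14 of the first list and 41.2% of the second. They were Pcdhac2, Pcdhgc4, Pcdhgc5, Pcdh1, Pcdh7, Pcdh11x and Pcdh18, and each had the same direction under both. The share of calls common to both viruses was not counted over all genes, so these shared calls have no background beside them. The signs matched at 44 of 64 members (68.75%, against 71.2% of all genes), and Pearson's r of the log2 fold changes was 0.74 over the 64 members and 0.71 over all genes tested, as a description. In sign and correlation the members were thus about as alike between viruses as genes in general.

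The difference between the 2 responses was tested directly, and 1 of 64 members passed, or 1.56%, against 1.15% of all genes (0.327% with a positive and 0.825% with a negative difference). That member was Pcdhac2, with a difference of -0.45 on the log2 scale (SE 0.10, adjusted p = 0.0444), a smaller rise under the H2BE virus. Its call was lost under 8 of 16 other settings. Another 14 members had an unadjusted p below 0.05 without passing, among them Pcdh1 (-0.32, adjusted p = 0.0832), Pcdh15 (-0.72, adjusted p = 0.161) and Pcdhgc5 (-0.51, adjusted p = 0.184). Over all genes 2248 of 13452 had an unadjusted p below 0.05, those that passed included. The differences of the members leaned to 1 side, with 52 of 64 negative and a median of -0.19. Over all genes 6875 of 13452 were negative, and the median stayed within 0.02 of 0. Over the other settings tried, the median of the members lay between -0.26 and -0.11. No gene outside the clusters had a positive difference. All members were read from the same libraries, so these signs are not independent of each other.

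The H2BE virus itself moved no member past the threshold. In H2BE against Control 0 of 64 were called by edgeR, with 11 at an unadjusted p below 0.05, and 0 by DESeq2, which gave 10 of them an adjusted p, against a background of 2.13% of genes. Over all genes 2445 of 13452 had an unadjusted p below 0.05 in this comparison. Log2 fold changes were positive for 47 of the 64 members (median 0.13), among them 15 of the 17 Pcdhg genes of the A and B types. Over all genes 6733 of 13452 were positive (median 0.0001). The members were read from the same libraries, so these signs are not independent of each other. The smallest adjusted p was that of Pcdhga11, which had 24.4 and 22.6 CPM in H2BE and 18 and 16.4 CPM in Control (log2 fold change 0.44, adjusted p = 0.0885). Pcdhac2 had 86.4 and 78.6 CPM in H2BE and 71.8 and 70.1 CPM in Control (log2 fold change 0.22, adjusted p = 0.124), and Pcdh1 had 216 and 213 CPM in H2BE and 184 and 192 CPM in Control (log2 fold change 0.19, adjusted p = 0.109). At each of these 3 genes both H2BE libraries were higher, and the groups did not overlap at 49.6% of all genes tested and 51.6% of members. Pcdh15 showed a similar order, with 25.5 and 28.6 CPM in H2BE and 19.7 and 15 CPM in Control (log2 fold change 0.58, adjusted p = 0.111).

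With BDNF present, H2BE+BDNF against BDNF, 0 of 64 members were called by edgeR, with 8 at an unadjusted p below 0.05, and 0 by DESeq2, which gave 7 an adjusted p, against a background of 0.0223% of genes (0.0149% higher and 0.00743% lower). Over all genes 1533 of 13452 had an unadjusted p below 0.05. Here 43 of the 64 log2 fold changes of members were negative (median -0.12), against 6947 of 13452 over all genes (median -0.01). Pcdhac1 stood furthest down, with 4.07 and 2.88 CPM in H2BE+BDNF and 7.21 and 8.46 CPM in BDNF (log2 fold change -1.15, adjusted p = 0.197). Pcdhac2 had 110.1 and 106 CPM in H2BE+BDNF and 126 and 129 CPM in BDNF (log2 fold change -0.23, adjusted p = 0.219). The H2BE libraries therefore lay above Control and the H2BE+BDNF libraries below BDNF at Pcdhac2, and neither difference passed on its own. Groups did not overlap at 49.6% of all genes in H2BE against Control and 40.9% in H2BE+BDNF against BDNF. The 2 comparisons of viruses each share a group with a BDNF comparison, so their values are not independent of those above. The difference of BDNF responses is also H2BE+BDNF against BDNF minus H2BE against Control, so its lean is not a separate result.

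**Figure D5:**
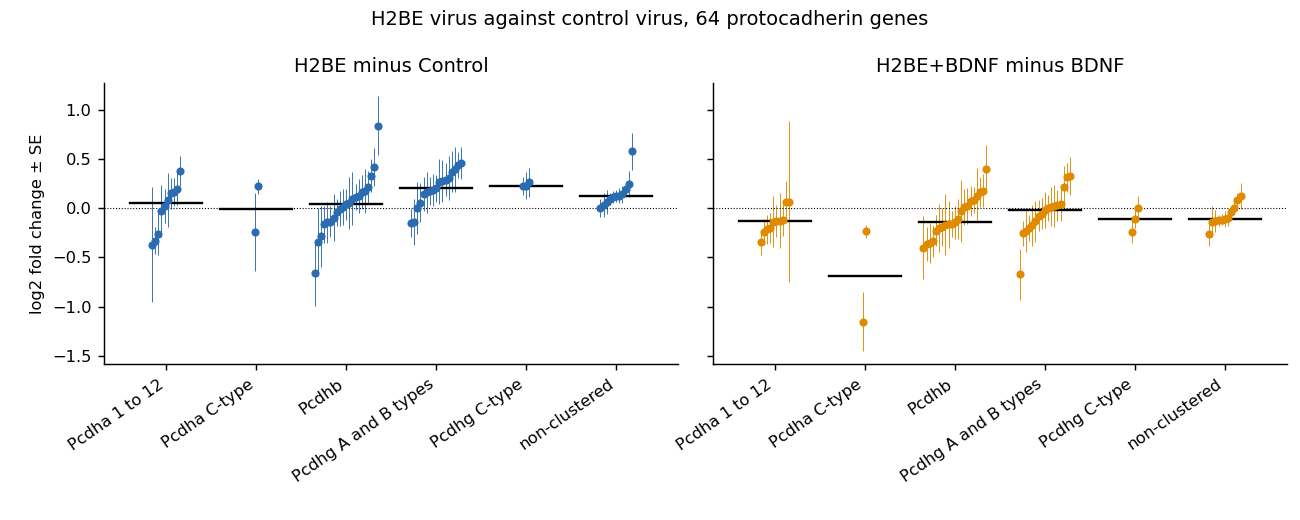
Log2 fold change between viruses, with its SE, of the 64 members tested, by subset, without BDNF (H2BE minus Control, left) and with BDNF (H2BE+BDNF minus BDNF, right). Points are genes sorted by value and bars are medians. Points lie mostly above 0 on the left and below 0 on the right, and none passed an adjusted p of 0.05.

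Genes that act with protocadherins, in lists chosen with earlier results of these data known, were counted in the same tests, in which 16.8% of all genes rose and 14.6% fell in BDNF against Control, and 13.4% rose and 12.3% fell in H2BE+BDNF against H2BE. Of 18 regulators of the clusters tested, among them CTCF, cohesin and DNA methyltransferases, 4 rose and 5 fell in BDNF against Control. The 4 with the smallest p all fell: Trim28 (log2 fold change -0.28, adjusted p = 0.00163), Ctcf (-0.35, 0.00165), Dnmt3a (-0.23, 0.00206) and the cohesin subunit Stag2 (-0.27, 0.00814). The 4 that rose had larger p and are not named. Under the H2BE virus 1 rose (Pds5a, 0.32) and 2 fell (Dnmt3a, -0.41, and Stag1, -0.34), while Trim28, Ctcf and Stag2 did not pass. Pds5a also stood higher under the control virus, with means of 73.4 CPM in BDNF and 59.2 CPM in Control. The median over the 18 regulators was -0.04 against Control and -0.03 against H2BE. Of 9 WAVE complex genes 2 rose and 2 fell against Control, and 1 rose and 1 fell against H2BE. Wasf1, the WAVE1 subunit, fell in both (-0.56 and -0.50), and Cyfip2 rose in both (0.47 and 0.25). Of 11 kinases and GTPase partners of protocadherin tails, 4 rose against Control and 3 against H2BE, Rhoa in both (0.32 and 0.61). Ppp1ca, which encodes the phosphatase bound by delta-1 tails, rose by 0.20 on the log2 scale against H2BE (adjusted p = 0.0398). It was not called against Control, with means of 233 CPM in BDNF and 238 CPM in Control. Of 8 genes for the proteases that cut protocadherins, Psenen fell against Control (-0.33, adjusted p = 0.0472).

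Relatives of the family were counted against the same shares of 31.4% of all genes called against Control and 25.8% against H2BE. Of 14 classical and type II cadherins tested, 4 rose and 6 fell against Control, and 4 rose and 5 fell against H2BE. Cdh10 rose under both viruses (1.10 and 1.11) and Cdh18 fell under both (-0.97 and -0.89). Of 12 Fat, Dachsous, flamingo and calsyntenin genes, 3 rose and 1 fell against Control, and 2 rose and 6 fell against H2BE. The count against Control, 4 of 12, was near that of genes in general. Against H2BE 6 of 12 fell, where 12.3% of all genes fell. Clstn1 fell in both (-0.19 and -0.27), and Fat1 (-0.63) and Dchs2 (-0.94) fell against H2BE. Fat3, a giant cadherin that shapes dendrites, rose in both (1.03 and 0.64) and was also higher in H2BE than in Control (0.37, adjusted p = 0.0195), as was Celsr3 (0.38, 0.0136). Fat1 (-0.72, adjusted p = 0.0453) and Celsr2 (-0.37, 0.0477) passed the test of the difference of BDNF responses, which 1.15% of all genes passed. Both were just under the threshold, and the 2 BDNF libraries of Fat1 were far apart (135.7 ± 34.0 CPM, SD, n = 2). Of 7 catenins, which link classical cadherins to actin, 1 rose and 2 fell against Control, and 1 rose and 3 fell against H2BE, with Ctnnb1 down in both (-0.26 and -0.30). Beside the medians of all genes, which were within 0.02 of 0, the medians of these lists with BDNF lay between -0.20 and 0.13.

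Markers of other cells moved with BDNF as well, and their part in the protocadherin results was not tested. Summed over 8 genes, markers of progenitors and dividing cells had 234 to 243 CPM in BDNF and 113 to 119.7 CPM in Control, and 238 to 242 CPM in H2BE+BDNF and 107 to 108 CPM in H2BE, with 5 of 8 genes up and 1 down against Control and 2 up against H2BE. Vim, an intermediate filament gene that glia also express, made up most of this sum, with means of 175 CPM in BDNF and 62.8 CPM in Control, and 183 CPM in H2BE+BDNF and 57.3 CPM in H2BE. Oligodendrocyte lineage markers had 75.7 to 83.9 CPM in BDNF and 43.5 to 46.3 CPM in Control, and 83.8 to 87.3 CPM in H2BE+BDNF and 47.2 to 51.7 CPM in H2BE, with 1 of 7 tested (Mbp) up under each virus. The 8 microglial markers had 24.2 to 24.7 CPM in BDNF and 10.7 to 11.4 CPM in Control, and 23.1 to 23.7 CPM in H2BE+BDNF and 5.36 to 8.07 CPM in H2BE, with 1 of 4 tested up against Control and 2 of 4 against H2BE. Most of that difference was Cd68, a lysosomal gene, with means of 17.9 CPM in BDNF and 4.87 CPM in Control, and 18.6 CPM in H2BE+BDNF and 3.53 CPM in H2BE, and the median log2 fold change of the 4 tested was -0.19 against Control and 1.36 against H2BE. Astrocyte markers had 438 to 467 CPM in BDNF and 384 to 395 CPM in Control, and 448 to 454 CPM in H2BE+BDNF and 467 CPM in both H2BE libraries, with 2 of 7 tested up against Control and 1 down against H2BE. Endothelial and mural markers had 31.8 to 32.1 CPM in BDNF and 28.9 to 32.7 CPM in Control, with 0 of 4 tested called. They had 35.2 to 37.3 CPM in H2BE+BDNF and 28.5 to 33.7 CPM in H2BE, with 1 of 4 (Rgs5) up. The 5 fibroblast markers, of which Dcn fell under both viruses, lay between 23.9 and 54 CPM. Markers of excitatory neurons were lower in sum with BDNF, at 990.4 to 1029 CPM in BDNF and 1125 to 1142 CPM in Control, and 1084 to 1113 CPM in H2BE+BDNF and 1277 to 1289.7 CPM in H2BE (5 of 8 genes down and 2 up against Control, 6 down and 2 up against H2BE). Slc17a6 was among those that rose, with means of 109 CPM in BDNF and 48.5 CPM in Control, and 112 CPM in H2BE+BDNF and 50.4 CPM in H2BE. Interneuron markers, the cells in which Pcdhgc4 is best studied, had 2098 to 2253 CPM in BDNF and 2137 to 2216 CPM in Control, and 1809 to 1869 CPM in H2BE+BDNF and 1879 to 1958 CPM in H2BE (1 of 8 up and 1 down against Control, 2 up and 3 down against H2BE). No listed marker was at 0 in all libraries. In these bulk libraries fewer cells of a type and less RNA per cell cannot be told apart.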

How the data were processed

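The protocadherin genes and the gene lists were chosen with earlier results of these data known. Raw counts per Ensembl gene, and signal values that are those counts divided by a size factor for each library, were deposited by the authors for 10 libraries. The normalized table lists 21862 of 48526 genes, all those with a count in 3 or more of the 10 libraries, and pairs IDs with symbols. Per the submitters' processing notes mm10, SAMtools, DESeq2 and deepTools were used. Versions, aligner, counting tool, strand setting and annotation are not stated in any source used here. NEBNext Ultra II libraries were made from polyA RNA, per the labels' protocols. Gene positions, exon overlap and lengths came from GENCODE M21, which holds 48058 of the IDs and all 69 members, and promoters came from RefSeq.

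Control replicate 3 and BDNF replicate 3 were left out. Their totals were 73.7% and 61.9% of those of replicate 1, no gene was higher in them, and their counts differed from replicate 1 by less than sampling noise (chi-square per degree of freedom 0.632 and 0.854, against 1.69 to 5.10 between distinct libraries of a group). The other 8 libraries entered 1 fit with a mean per group in edgeR 4.0.16 (limma 3.58.1, R 4.3.3): TMM scaling, filterByExpr with a count minimum of 10 and a total of 15, the quasi-likelihood F test and Benjamini-Hochberg adjustment over 13452 genes, which held 99.8% of counts. A gene was called at an adjusted p below 0.05, and all adjusted p-values come from this test unless DESeq2 1.42.0 is named. The script was tested on simulated data drawn from the real means. Named with values are all members called in any comparison, the 5 most abundant of each cluster, the genes outside the clusters that passed the filter and the C types, and up to 4 called genes of each other list. Others were chosen after their values were seen. Same-numbered libraries did not deviate together (correlations -0.17 for BDNF and Control and -0.30 for H2BE+BDNF and H2BE), so the numbers were not taken as pairs.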

Additional observations from a re-analysis of the deposited data

Results flagged for a closer look

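Pcdhac2 was singled out because its response to BDNF differed between the viruses in the test of that difference: it rose under both, and the log2 fold change under the H2BE virus was lower by 0.45 (difference -0.45, SE 0.10, adjusted p = 0.0444, edgeR quasi-likelihood test). It had 110.1 and 106 CPM in H2BE+BDNF and 126 and 129 CPM in BDNF, and 86.4 and 78.6 CPM in H2BE and 71.8 and 70.1 CPM in Control. The adjusted p was 0.288 without Control replicate 1 and 0.0833 without Control replicate 2. It was 0.287 without H2BE replicate 2 and 0.0568 without H2BE replicate 3. Leaving out H2BE+BDNF replicate 2 gave 0.105, and leaving out H2BE+BDNF replicate 3 gave 0.171. The call held without either BDNF library. It was 0.0936 with the crossed pairing and 0.139 with the length and GC correction. The cause of the difference was not tested.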

How the results depend on the processing

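Of the 32 calls of members in the 5 comparisons, 13 were kept under every alternative tried, 19 were lost under at least 1, and 0 changed direction. Kept throughout were Pcdhac1, Pcdhac2, Pcdhgc4, Pcdhgc5, Pcdh1, Pcdh7, Pcdh11x and Pcdh15 in BDNF against Control, and Pcdhac2, Pcdhgc4, Pcdhgc5, Pcdh7 and Pcdh11x in H2BE+BDNF against H2BE. With the subset libraries counted as replicates (all 10 libraries), 22 members were called in BDNF against Control in place of 14, 4 in H2BE against Control in place of 0 (Pcdhac2, Pcdhb15, Pcdhga11 and Pcdh1) and 7 for the difference of responses in place of 1, which treats part of a library as a further sample. DESeq2 called 8 members in BDNF against Control, 9 in H2BE+BDNF against H2BE in place of 17, and 2 for the difference (Pcdhac2 and Pcdh1). With no filter on low counts there were 1 in H2BE against Control (Pcdh15), 2 in H2BE+BDNF against BDNF (Pcdh9 and Pcdhac1) and 4 for the difference. The length and GC correction and the crossed pairing, which was chosen after seeing the data, each left 0 for the difference by edgeR, and the crossed pairing gave 16 and 17 calls with BDNF under the control and the H2BE virus. The replicate block gave 11 calls in BDNF against Control, 15 in H2BE+BDNF against H2BE, 1 in H2BE+BDNF against BDNF (Pcdh9), 0 in H2BE against Control and 1 for the difference. Without 1 library at a time the counts ran from 9 (without Control replicate 2) to 17 in BDNF against Control, 8 (without H2BE replicate 2) to 18 in H2BE+BDNF against H2BE, 0 to 3 in H2BE against Control, 0 to 4 in H2BE+BDNF against BDNF and 0 to 5 for the difference. The group left with 1 library was then assumed to vary like the others. Over all genes, the 4225 calls in BDNF against Control became 6465 with all 10 libraries, 2512 with DESeq2 and 2278 without Control replicate 1. The 3466 in H2BE+BDNF against H2BE became 2226 with DESeq2, 2244 when H2BE+BDNF replicate 2 was left out and 1818 when H2BE replicate 2 was. The other 3 comparisons were far less stable over the alternatives: 287 calls in H2BE against Control ranged from 2 (without Control replicate 1) to 1611 (all 10 libraries), 3 in H2BE+BDNF against BDNF from 1 to 764 (without BDNF replicate 1), and 155 for the difference from 0 to 1169 (all 10 libraries). The log2 ratio of summed CPM with BDNF under the control virus, -0.04 for the Pcdhg A and B types, was 0.028 with the subset libraries in place of replicates 1. For the Pcdhg C types it was 0.10, and it was 0.14 with all 10 libraries and 0.17 with the subset libraries. The causes of these shifts were not tested. With 2 libraries a group, genes of a few counts such as Pcdha11 and Pcdhac1 are the least certain.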
